A study of Mus musculus with 18 samples.

Results

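The xenobiotic sensors described here are 5 genes: Ahr, Arnt, Ahrr, Nr1i2 and Nr1i3. They were followed at every CpG site inside the gene or within 5 kb of either end on GRCm38 that had at least 10 reads in both pools of a tissue. This gave 277 sites of 1876099 tested in gonadal adipose tissue, 220 of 1569349 in hypothalamus and 234 of 1628817 in liver. In all, 281 sites were tested in at least 1 tissue and 199 in all 3 tissues. Ahrr had the most, 85 sites in any tissue, followed by Ahr with 76, Nr1i3 with 63 and Nr1i2 with 50, and Arnt had only 7. Of the 281 sites, 172 lay inside the member gene and 109 in its flanks, and 88 also lay inside a neighbouring gene.

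The study asked how exposure to bisphenol A (BPA), a monomer of polycarbonate plastics that binds oestrogen receptors weakly, relates to DNA methylation in mouse offspring. Pregnant C57BL/6 mice were gavaged daily from day 1 to day 20 after conception with BPA in corn oil at 5 mg/kg, or with the corn oil vehicle alone. Male offspring were sampled at 3 weeks of age, with 3 samples of each treatment from gonadal adipose tissue, hypothalamus and liver, 18 samples in all. Litters numbered 3 in the control and 4 in the BPA group, and no label ties a sample to its litter. Both groups shared the strain, the sex, the low-isoflavone diet of their mothers before mating and polycarbonate-free housing. Methylation was read by reduced representation bisulfite sequencing (RRBS), which cuts DNA at CCGG with the enzyme MspI before bisulfite converts unmethylated cytosines.

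AHR is a cytosolic receptor for planar aromatic compounds such as dioxins. After binding it enters the nucleus, pairs with ARNT and occupies xenobiotic response elements, whose core is GCGTG, near genes such as Cyp1a1. AHRR is itself induced by AHR, competes for ARNT and the same elements, and so closes a feedback loop. PXR, encoded by Nr1i2, and CAR, encoded by Nr1i3, are nuclear receptors best known from liver and gut, where they pair with RXR and induce cytochrome P450 enzymes, conjugating enzymes and export pumps.

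The deposited tables hold 1 pool of the 3 samples per treatment and tissue, so each level given here is a pooled value of the authors with no error between animals. The pools are numbered 0 and 1. Number 0 was read as control from the order of the groups in the name of the tables alone, and every direction between pools would turn if it were the reverse. Coverage per tested site was similar between pools, with control and BPA medians of 144 and 164 reads for adipose, 93 and 98 for hypothalamus, and 136 and 127 for liver. Intervals are 95% intervals (exact Clopper-Pearson for levels, Newcombe for differences). They cover counting error only, since several PCR reads without molecular identifiers can come from 1 molecule, and CpG sites on 1 read share that read. In these bulk tissues a different mix of cells and a different methylation level within cells cannot be told apart. As a check of the tissue labels, genes marking hepatocytes had their lowest control level in liver for 6 of 8 genes, adipocyte genes in adipose for 4 of 7, neuron genes in hypothalamus for 4 of 7 and astrocyte genes in hypothalamus for 3 of 5. Oligodendrocyte genes were lowest in hypothalamus for only 1 of 5, endothelial genes in adipose for 3 of 6, and leukocyte genes in adipose for 4 of 7.

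The start regions of the members differ in how much CpG sequence RRBS can read. The 250 bases before the annotated start are shown for 3 members, 5′ to 3′ on the gene's own strand, with each CpG in capitals (RefSeq, GRCm38.p6). Ahrr lies on the minus strand and this stretch is chr13:74292332-74292581. Nr1i2 is also on the minus strand, at chr16:38294825-38295074, and Nr1i3 is on the plus strand, at chr1:171213720-171213969.
Ahrr: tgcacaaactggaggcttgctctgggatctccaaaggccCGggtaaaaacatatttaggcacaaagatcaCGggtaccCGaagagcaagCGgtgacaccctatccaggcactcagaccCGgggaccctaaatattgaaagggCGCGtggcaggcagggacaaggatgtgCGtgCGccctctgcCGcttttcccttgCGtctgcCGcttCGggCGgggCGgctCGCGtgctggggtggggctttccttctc
Nr1i2: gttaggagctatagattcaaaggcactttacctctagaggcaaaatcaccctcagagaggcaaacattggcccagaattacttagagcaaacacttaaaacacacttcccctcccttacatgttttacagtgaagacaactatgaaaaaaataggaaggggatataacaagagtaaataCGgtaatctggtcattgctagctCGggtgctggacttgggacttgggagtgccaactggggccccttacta
Nr1i3: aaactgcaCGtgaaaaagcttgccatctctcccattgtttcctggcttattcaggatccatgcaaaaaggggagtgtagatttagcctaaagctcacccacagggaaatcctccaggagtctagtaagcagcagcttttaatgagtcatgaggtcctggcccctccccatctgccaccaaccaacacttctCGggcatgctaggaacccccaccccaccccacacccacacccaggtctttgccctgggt
The Ahrr stretch holds 17 CpG and 2 MspI sites, whereas Nr1i2 and Nr1i3 hold 2 CpG and 0 MspI sites each. The Arnt stretch, chr3:95434140-95434389 on the plus strand, holds 12 CpG and 3 MspI sites. Over 32851 such windows the median was 6 CpG, and CCGG, which reads the same on both strands, occurred in 47.1% of them. In the window from 250 bases before to 50 after the start, 13 CpG of Ahrr were measured, and no tested CpG of Arnt, Nr1i2 or Nr1i3 fell there. What follows for those 3 genes therefore concerns the gene body and the flanks.

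The Ahrr stretch also holds the core of the xenobiotic response element 3 times. These are shown with 8 bases on each side and the core in capitals, named by the position of the first core base from the start. GCGTG was searched on both strands, and 28.2% of the 32851 stretches of 250 bases held it at least once.
Ahrr core at -107: gaaagggcGCGTGgcaggcag
Ahrr core at -82: aaggatgtGCGTGcgccctct
Ahrr core at -27: ggcggctcGCGTGctggggtg
A match of these letters is a description of sequence and not a measured binding site.

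**Figure D1:**
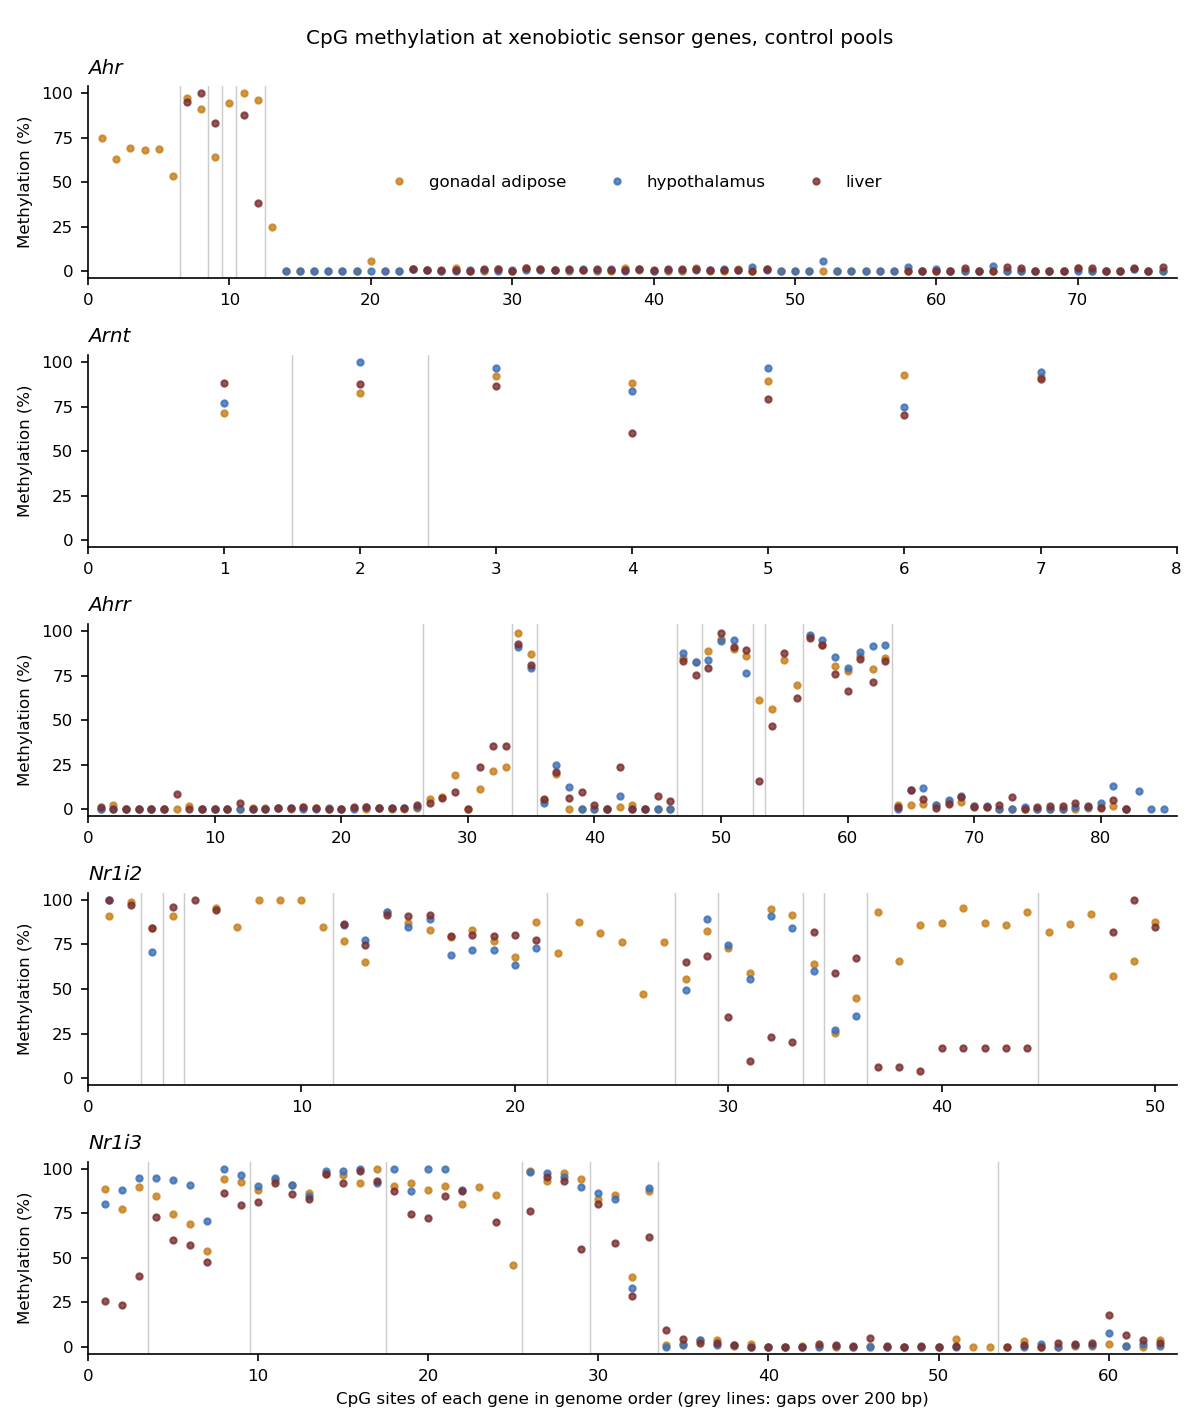
Methylation level in percent of every tested CpG site in the control pools, in genome order, with 1 panel per gene and 1 colour per tissue. The Ahr panel is near 0 over most sites, and the liver points of Nr1i2 and Nr1i3 fall below the other tissues in several stretches.

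Ahr was nearly unmethylated over a dense run of 64 CpG sites spanning 477 bp at chr12:35534573-35535049, at the high-coordinate end of the gene (chr12:35497979-35534989). Summed over the run, 0.615% of 7970 control reads were methylated in adipose (0.455 to 0.812), 0.670% of 7757 in hypothalamus and 0.881% of 8171 in liver. The BPA pools had 0.507%, 0.804% and 0.490%. The sums rest on 64, 63 and 45 of the sites in that order, so the tissues were not summed over the same sites. These levels sit close to the residual signal of the assay, since sites under 1% in the other tissues read, in control and BPA pools, 0.459% and 0.460% for adipose, 0.459% and 0.868% for hypothalamus, and 0.755% and 0.578% for liver. The highest single control level of the run in adipose was 25% at its first site, position 35534573, on only 20 reads, followed by 5.56%. That first site read 0% of 32 reads in the adipose BPA pool (adjusted Fisher p = 0.206). No site of the run was called in any comparison.

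The remaining 12 Ahr sites lay inside the gene and were methylated, and none of them was tested in hypothalamus. Between tissues, 1 of 50 Ahr sites was called lower in liver than in adipose: position 35521017, with 95.9% of 49 reads in adipose and 38.1% of 21 in liver, a difference of -57.8 points (-75.4 to -34.7; adjusted Fisher p = 6.06e-06). A site was called when the Benjamini-Hochberg adjusted p over all tested sites was under 0.05 and the difference was at least 5 percentage points.

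Arnt, the partner that AHR needs to bind DNA, was measured at 7 sites in the gene (chr3:95434367-95497240), 2 of them 2734 and 3003 bp after the start, and was methylated in every tissue. Its summed control level was 87.4% of 950 reads in adipose (85.1 to 89.4), 89.7% of 233 in hypothalamus (85.1 to 93.3) and 80.7% of 523 in liver (77 to 84). A cluster of 5 sites that begins 59402 bp after the start, at chr3:95493792-95494060, gave 91.0%, 89.1% and 77.4% in the same order. Here 2 sites were called lower in liver than in adipose, led by position 95493845 at 88.4% in adipose and 60.0% in liver (-28.4 points, -41.0 to -15.7; adjusted Fisher p = 1.23e-04). Hypothalamus differed from adipose at 2 Arnt sites in opposite directions, the larger at position 95494048 with 92.6% in adipose and 75.0% of 36 reads in hypothalamus (adjusted Fisher p = 0.0369).

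Ahrr, the feedback repressor, was unmethylated across its start and methylated within 1 kb inside the gene. The 22 sites from -179 to +99 bp, of which 19 were tested in adipose and liver, had summed control levels of 1.5% of 3391 reads in adipose (1.12 to 1.97), 3.53% of 1815 in hypothalamus (2.73 to 4.48) and 2.82% of 2268 in liver (2.18 to 3.59). The 7 sites from +597 to +949 bp had 85.1%, 91.0% and 83.0%. All 3 tissues showed this step, and so did the BPA pools, with 0.899%, 4.07% and 2.26% at the start and 83.9%, 89.0% and 81.2% inside.

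Measurements covered the CpG that lies wholly inside the core for 2 of the 3 response element cores of Ahrr. At the core at -107 (CpG at position 74292436) the control and BPA levels were 1.27% and 0% for adipose, 3.70% and 4.05% for hypothalamus, and 0.870% and 0.926% for liver. At the core at -82 (position 74292411) they were 0.645% and 0% for adipose, 1.32% and 0% for hypothalamus, and 1.71% and 1.92% for liver. Each value rests on 70 to 195 reads, and the smallest Fisher p of the 6 comparisons was 0.2, unadjusted. Both of these CpG were thus at or under 4.05% in all 6 pools. The guanine of the CpG at position 74292438 is the first base of the core at -107. Its control and BPA levels were 1.94% and 5.18% for adipose, 12.9% and 7.81% for hypothalamus, and 5.36% and 6.19% for liver. In the control pools it was higher in hypothalamus than in adipose, with 12.9% of 70 reads against 1.94% of 155 (10.96 points, 3.97 to 20.8; adjusted Fisher p = 0.0161). In all, 3 start sites were called higher in hypothalamus than in adipose and 1 higher in liver than in adipose.

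**Figure D2:**
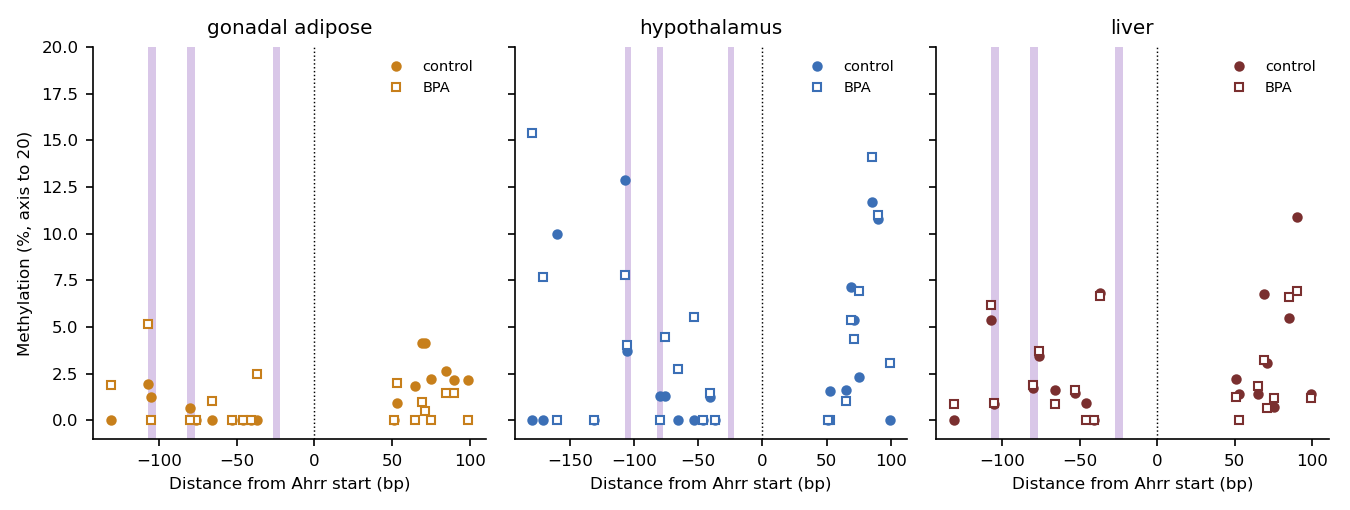
Methylation level in percent, on an axis that ends at 20, of each CpG around the Ahrr start against distance in bp, for control pools (filled) and BPA pools (open). Shaded bars mark the response element cores. The CpG wholly inside a core read at most 4.05%, and the CpG at -107, whose guanine opens a core, read up to 12.9%.

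Farther inside Ahrr, 11 sites between +32313 and +32612 bp were again low, with 1.56% of 831 control reads in adipose, 5.73% of 192 in hypothalamus and 6.92% of 448 in liver. Position 74259989 in that run was called higher in liver, at 23.8% of 42 reads against 1.10% of 91 in adipose (adjusted Fisher p = 4.40e-04). The largest called difference of Ahrr was at position 74282730, with 61.1% of 18 reads in adipose and 15.8% of 19 in liver, which rests on few reads (-45.3 points, -66.6 to -14.0; adjusted Fisher p = 0.0415). Against hypothalamus, liver was lowest relative to it at position 74291668, with 71.6% of 194 reads against 91.6% of 131 (adjusted Fisher p = 1.25e-04). A further 33 sites counted for Ahrr lay in the neighbouring gene Exoc3, of which a run of 26 stood between 0.384% and 0.753% in the control pools.

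Nr1i2, which encodes PXR, carried the widest differences between tissues. Its summed control level was 75.1% of 5916 reads in adipose (74.0 to 76.2), 70.8% of 2448 in hypothalamus (68.9 to 72.6) and 61.0% of 4178 in liver (59.5 to 62.5), over 49, 21 and 36 sites. About 1 kb into the gene, 8 sites from +705 to +1018 bp (chr16:38293806-38294119) had 86.1% of 546 reads in adipose (82.9 to 88.9) and 12.0% of 209 in liver (7.89 to 17.2). Every one of the 8 sites was called lower in liver, by differences from -59.8 to -86.8 points. The widest was position 38293806, at 93.0% of 86 reads in adipose and 6.25% of 32 in liver (adjusted Fisher p = 6.51e-18). These sites did not reach 10 reads in both pools of hypothalamus and were not tested there.

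Liver also stood low in a short stretch deeper in Nr1i2, at chr16:38281046-38281172, 13652 to 13778 bp after the start. This stretch and the other ones of fewer than 5 sites below were singled out after their values were seen. Its 4 sites read 73.2%, 58.9%, 94.9% and 91.8% in adipose and 74.8%, 55.8%, 90.7% and 84.1% in hypothalamus. In liver they read 34.2%, 9.43%, 22.8% and 20.3%, below both other tissues at each site, and all 4 were called against each. Position 38281166 had the widest gap to hypothalamus, -67.9 points (-74.6 to -59.2; adjusted Fisher p = 5.12e-36).

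The opposite order was found nearer the start, 11297 to 11540 bp into Nr1i2. At positions 38283284, 38283495 and 38283527 liver read 82.1%, 58.7% and 67.2%. Adipose read 63.8%, 25.1% and 44.7%, and hypothalamus 60.0%, 27.2% and 34.9%. All 3 sites were called higher in liver against each other tissue, by 18.3 to 33.6 points. Nr1i2 therefore held stretches of lower and of higher methylation in liver within 1 gene. Adipose and hypothalamus had 0 called sites of 21, beside 13.1% of all sites for that pair. Those 21 are fewer than the 50 Nr1i2 sites tested in any tissue. Ahr also had 0 called sites, of 63, for that pair.

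Nr1i3, which encodes CAR, was lower in liver just after its start. At positions 171214246, 171214401 and 171214427, between +276 and +457 bp, liver read 25.6% of 223, 23.6% of 208 and 39.8% of 206 reads. Adipose read 88.8%, 77.7% and 89.9%, and hypothalamus 80.5%, 88.3% and 95.0%. The 3 sites were called lower in liver against both tissues. The widest gaps were -63.2 points to adipose at the first site (-69.4 to -55.8; adjusted Fisher p = 8.73e-48) and -64.7 points to hypothalamus at the second (-71.8 to -55.4; adjusted Fisher p = 1.46e-29).

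In the next measured run of Nr1i3, hypothalamus was highest and liver lowest. Over 6 sites from +2803 to +2914 bp, hypothalamus had 89.3% of 636 reads (86.6 to 91.6), adipose 74.9% of 1055 (72.2 to 77.5) and liver 64.3% of 720 (60.7 to 67.8). Liver was called lower than hypothalamus at all 6, and lower than adipose at 2. Hypothalamus was called higher than adipose at 3, by up to 21.6 points at position 171216796 (adjusted Fisher p = 1.94e-05). A further 8 sites from +3663 to +3799 bp were high everywhere, at 92.6%, 93.4% and 89.6%.

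Most tested sites counted for Nr1i3, 41 of the 63, lay beyond its end. The neighbours Tomm40l and Apoa2 hold 46 of the 63, some of them inside Nr1i3 as well. The sites at positions 171219422 and 171219665, inside Tomm40l, were again lower in liver, the latter at 55.2% of 96 reads against 94.5% in adipose and 90.0% in hypothalamus. Farther on, 2 runs of 20 and 10 sites were nearly unmethylated, at 1.2% and 1.11% in adipose. In the second run, inside Apoa2, position 171222999 read 1.61% in adipose, 7.67% in hypothalamus and 17.7% of 334 reads in liver. Those flank sites cannot be assigned to Nr1i3 over its neighbours.

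**Figure D3:**
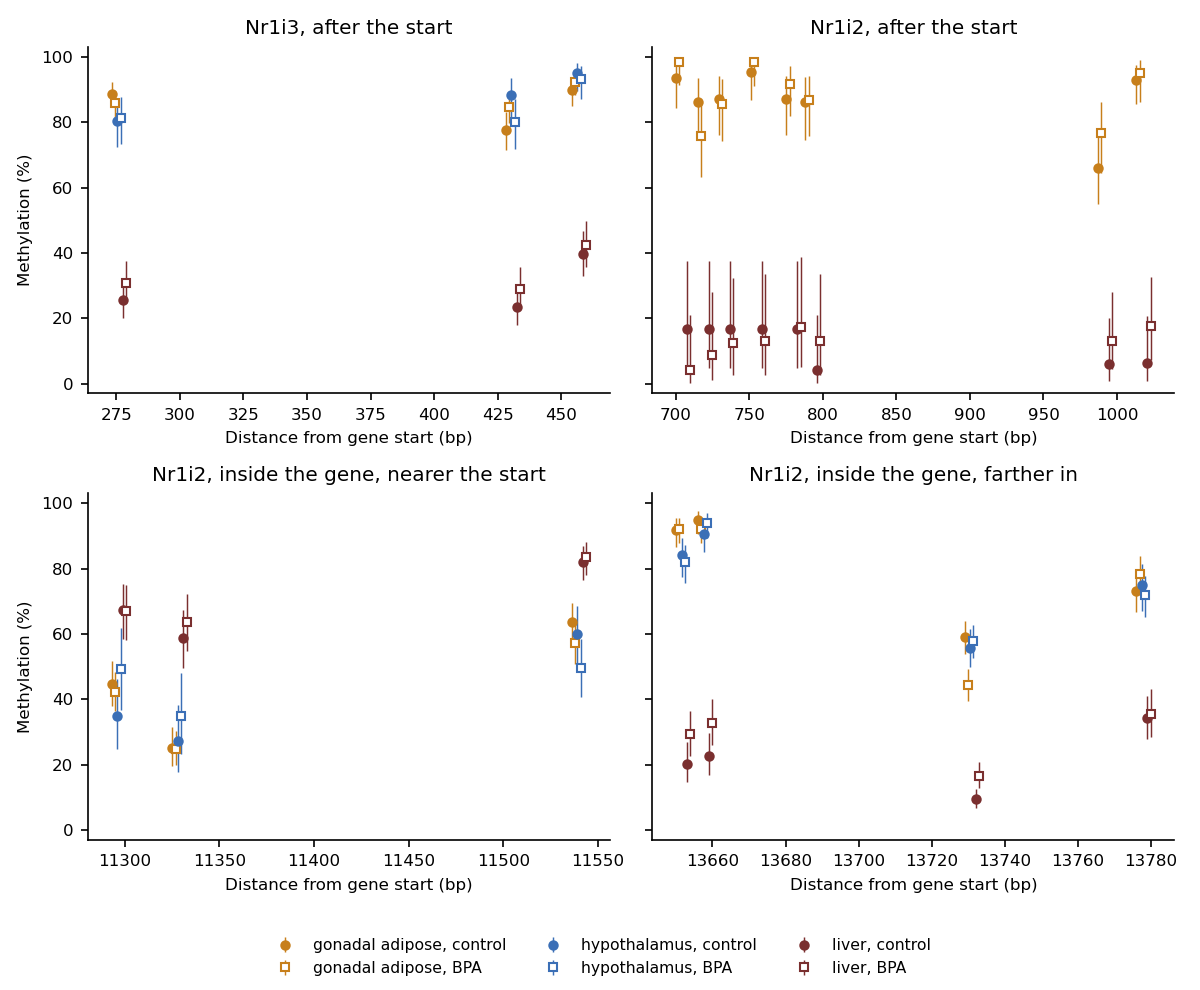
Methylation level in percent with 95% intervals against distance from the gene start in bp, for control pools (filled) and BPA pools (open) of each tissue, in 4 stretches of Nr1i3 and Nr1i2. Liver points lie below the other tissues in 3 stretches and above them in the stretch at 11297 to 11540 bp of Nr1i2. Points are shifted sideways by a few bp so that they do not cover each other.

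Counted over the members, liver differed from adipose at 35 of 233 sites (15.0%), of which 27 were lower in liver and 8 higher. Over all tested sites 16.7% were called, 8.19% lower and 8.54% higher. Against hypothalamus, liver was called at 28 of 199 member sites (14.1%), 20 lower and 8 higher, beside 17.3% of all sites, 11.5% lower and 5.86% higher. Hypothalamus and adipose differed at 11 of 217 member sites (5.07%), 9 higher in hypothalamus and 2 lower, beside 13.1% of all sites, 9.23% higher and 3.84% lower. Each total share of the members was below that of the table, while their share lower in liver than in adipose, 11.6%, was above it. Nr1i2 held 16 of the 35 calls between liver and adipose at 35 tested sites (45.7%) and 10 of the 28 between liver and hypothalamus at 21 sites (47.6%). Nr1i3 held 12 calls at 59 sites (20.3%) and 16 at 57 sites (28.1%). The mostly unmethylated Ahr and Ahrr held 1 and 4 calls between liver and adipose, and 0 and 2 between liver and hypothalamus. Scaling the p-values by the mean excess of the squared difference over counting error, 7.34 and 7.25 for these pairs, left 6 calls in each, at the same 6 sites. They are positions 38281093, 38281166 and 38281172 of Nr1i2 and the 3 sites after the start of Nr1i3. Their Fisher p, scaled in this way and then adjusted, ran from 1.54e-05 to 0.0216. That excess itself contains the tissue differences.

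Between the BPA and control pools, 3 of 277 member sites were called in adipose (1.08%), beside 0.535% of all sites tested there. In adipose 1 was higher in the BPA pool, where 0.252% of all sites were, and 2 were lower, where 0.283% were. Hypothalamus and liver had 0 called member sites of 220 and 234, beside 0.00599% and 0.0259% of all sites, so that calls were rare throughout those 2 tables. At an unadjusted Fisher p under 0.05 the members had 19 sites in adipose (6.86%), 5 in hypothalamus (2.27%) and 6 in liver (2.56%), each below the share of all sites, 10.1%, 3.41% and 4.21%. The median difference over member sites was 0 points in each tissue, as it was over all sites.

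The 3 called sites lay in 3 genes: Ahr, Arnt and Nr1i2. By this rule neither Ahrr nor Nr1i3 had a called site. The Ahr site, position 35504567 inside the gene, had 62.9% of 35 reads in the control pool (44.9 to 78.5) and 94.9% of 59 in the BPA pool (85.9 to 98.9). It was higher by 32.0 points (15.5 to 48.9; adjusted Fisher p = 0.0322). The 6 sites of its stretch of 97 bp, chr12:35504547-35504643, were all higher in the BPA pool, at 67.5% of 163 control and 84.4% of 315 BPA reads in sum, which includes the reads of the called site. Single sites rested on 15 to 59 reads, and the stretch reached 10 reads in adipose alone.

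The Arnt site, position 95493845 in the cluster 59402 bp and more after the start, fell in adipose from 88.4% of 121 reads (81.3 to 93.5) to 68.8% of 176 (61.3 to 75.5). The difference was -19.6 points (-28.2 to -10.3; adjusted Fisher p = 0.0262). Of its 4 neighbours in the cluster, 3 were lower and 1 was higher in the BPA pool, by at most 4.80 points, so the gap stood at 1 CpG. Hypothalamus read 83.9% of 31 and 71.4% of 35 reads at this site (p = 0.256 by Fisher's exact test), and liver 60.0% of 70 and 60.7% of 89. The Arnt sites outside the cluster went opposite ways in adipose, and neither was called. Position 95437124 rose from 71.2% of 111 reads to 87.1% of 116 (adjusted Fisher p = 0.158). Position 95437393 fell from 82.6% of 149 reads to 72.3% of 155 (adjusted Fisher p = 0.450).

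The Nr1i2 site, position 38281093, belongs to the stretch 13652 to 13778 bp into the gene that was low in liver, and had the most reads of the 3. It fell in adipose from 58.9% of 375 reads (53.8 to 64.0) to 44.4% of 412 (39.6 to 49.4), by -14.5 points (-21.3 to -7.53; adjusted Fisher p = 0.0237). In hypothalamus it read 55.8% of 303 and 57.7% of 369 reads. In liver it read 9.43% of 403 and 16.6% of 349 reads, higher by 7.17 points (2.39 to 12.1), which did not pass the adjusted threshold (unadjusted p = 0.00421, adjusted p = 0.782, Fisher's exact test).

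**Figure D4:**
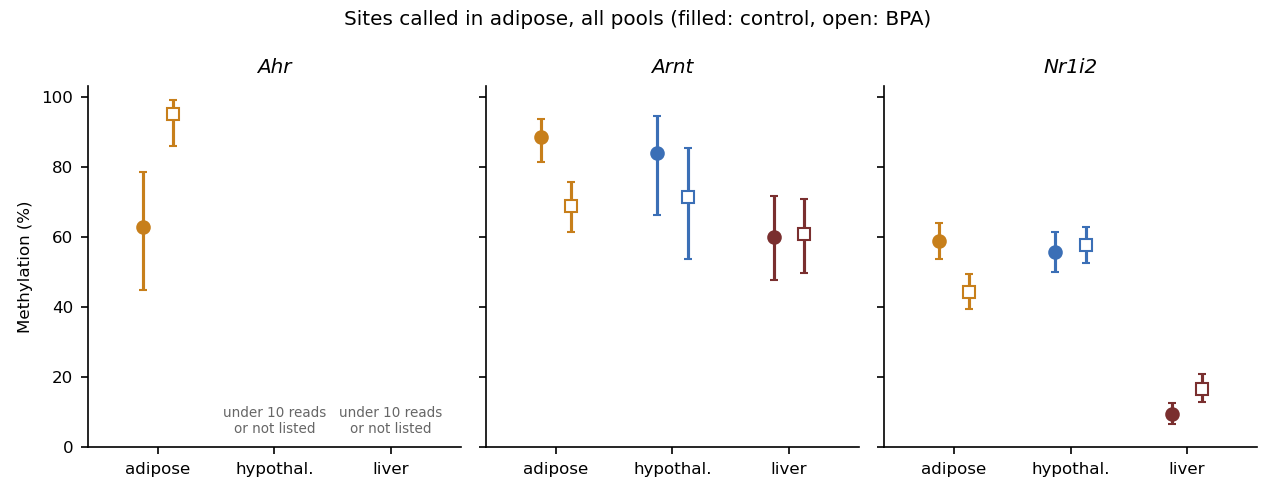
Methylation level in percent with 95% Clopper-Pearson intervals at the 3 sites called in adipose, in control pools (filled) and BPA pools (open) of each tissue. The pools lie apart in adipose, with 62.9% and 94.9% at Ahr, 88.4% and 68.8% at Arnt, and 58.9% and 44.4% at Nr1i2.

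All 3 adipose calls depend on treating reads as the only source of error. The squared difference between pools exceeded its counting error by a mean factor of 1.91 in adipose, and scaling the p-values by that factor left 0 of the 3 calls. By the authors' deposited table, a credible difference of at least 5 points was reached at 9 member sites in adipose, the 3 called sites among them, at 0 in hypothalamus and at 1 in liver. Nr1i3 holds 3 of these, positions 171216796 and 171217751 in adipose and 171220384 in liver. Arnt position 95437124, higher in the adipose BPA pool, is also among them. So are Ahr positions 35504588 and 35534573 and Nr1i2 position 38253827, all in adipose. The share of all sites reaching such a credible difference was not counted, so these numbers cannot be set against it. In adipose, sites near marker genes of other cell types were called too, beside 0.535% of all sites, 0.252% higher and 0.283% lower. Endothelial genes had 10 of 609 (1.64%, 8 lower), leukocyte genes 2 of 151 (1.32%, both lower) and oligodendrocyte genes 7 of 383 (1.83%, all lower). Astrocyte genes had 2 of 253 (0.791%, both lower) and neuron genes 3 of 1338 (0.224%, 1 lower). Hepatocyte genes had 2 of 98 (2.04%, both higher) and adipocyte genes 1 of 201 (0.498%, higher). The neuron and adipocyte shares were below that of all sites and the others above it. Summed levels of the endothelial list were 48.0% and 47.8% in the control and BPA pools, of the leukocyte list 74.0% and 74.1%, and of the adipocyte list 55.3% and 55.5%. The hepatocyte list had 79.3% and 81.2%, and the oligodendrocyte list 61.5% and 60.4%. The astrocyte list had 47.8% and 47.5%, and the neuron list 44.1% and 43.8%. The part of these marker sites in the adipose results was not tested.

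The difference between the pools was compared across tissues at the sites above and at the site with the smallest p of each gene and tissue, 39 tests in all. Because the sites were chosen by their p in 1 of the tissues, these tests are not independent of that choice. At Nr1i2 position 38281093 adipose differed from liver (adjusted p = 1.34e-04) and from hypothalamus (adjusted p = 0.0236), by the Wald test on binomial read counts. At position 38273026 of Nr1i2, adipose read 82.8% and 73.0%, hypothalamus 89.4% and 82.8%, and liver 68.4% and 73.2%, and only liver against adipose passed (adjusted p = 0.0195, Wald test on binomial read counts). The first of those values, in adipose, did not pass the adjusted threshold (adjusted Fisher p = 0.113). Liver and adipose also differed at Arnt position 95493845 and at position 171220384 in the flank of Nr1i3, both with an adjusted Wald p of 0.04997, which became 0.0538 when 1 in place of 0.5 was added to each cell.

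Summed by reads over the gene and its 5 kb flanks, Nr1i2 went in adipose from 75.1% of 5916 reads to 71.5% of 6285, -3.60 points (-5.17 to -2.03). With each site weighted equally the difference was -2.26 points, and that of Arnt was -3.11. Of the 49 Nr1i2 sites tested in adipose, 28 were lower and 19 higher in the BPA pool, or 57.1% lower beside 43.6% of all sites tested. A run of 10 sites far inside the gene, chr16:38253741-38253964, was lower in the BPA pool of all 3 tissues, where control and BPA levels were 79.9% and 75.7% for adipose, 79.0% and 75.0% for hypothalamus, and 83.1% and 80.9% for liver, with 7, 8 and 8 of the 10 sites lower. No site of it was called, though position 38253827 reached the authors' credible difference of at least 5 points in adipose. Summed by reads, Arnt differed by -3.37 points in adipose (-6.32 to -0.364), by -6.49 in hypothalamus (-12.4 to -0.419) and by 0.426 in liver (-3.94 to 5.17). The sites of 1 gene share reads, so these intervals are too narrow. The adipose sums of Arnt and Nr1i2 also include the reads of their called sites, so they are not separate support for those calls.

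Ahr, Ahrr and Nr1i3 follow as whole genes. Ahr differed by 0.399 points in adipose, 0.134 in hypothalamus and -0.250 in liver. Nr1i3 differed by -0.213, -1.89 and -0.0865 points. Ahrr differed by 0.514, 3.55 and -1.85 points, but sums weight sites by their reads. With each site weighted equally the Ahrr differences became -0.316, 0.601 and 0.354 points, so that the sign turned in adipose and liver. It turned as well for Nr1i3 in adipose (0.351) and liver (1.21), and for Nr1i2 in liver, from 1.36 to -0.609 points. Summed by reads in the gene body alone, Ahrr differed by 1.68 points in adipose, 4.72 in hypothalamus and -5.44 in liver. Nr1i3 differed there by 0.324, -1.21 and 1.09 points in the same order.

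**Figure D5:**
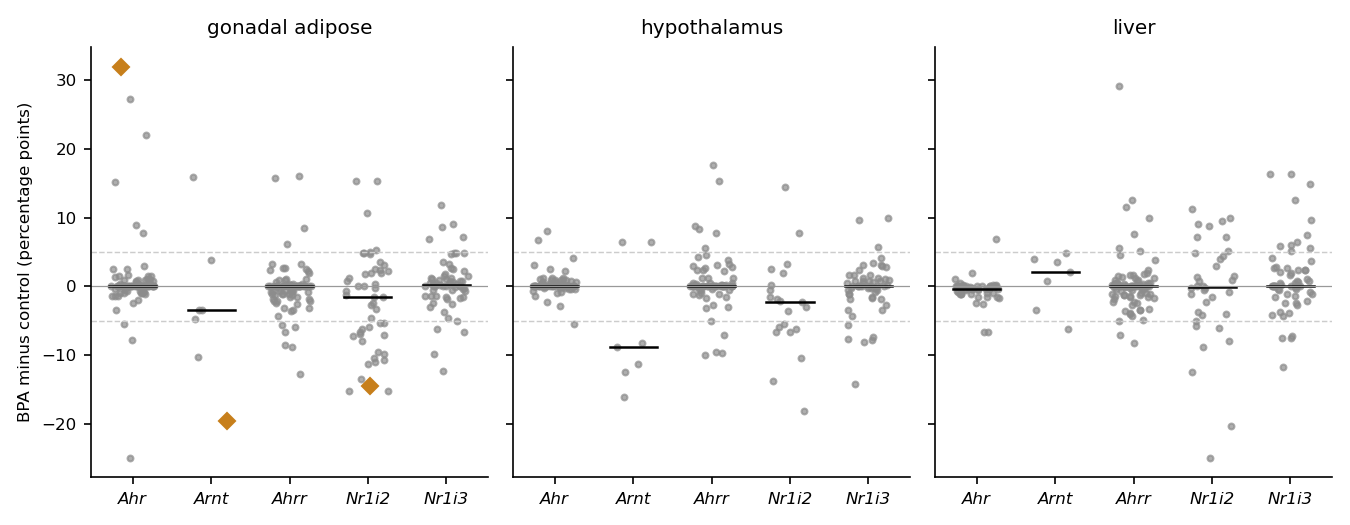
Difference between the BPA and the control pool in percentage points at every tested member site, by gene and tissue, with black bars for the median of each gene and dashed lines at 5 points either way. The 3 called sites, shown as diamonds, are all in adipose, at 32.0, -19.6 and -14.5 points.

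The stretches that were low in liver did not all differ in 1 direction between the liver pools. The 4 sites of Nr1i2 around position 38281093 went from 19.5% of 987 reads (17.0 to 22.1) to 26.3% of 887 in sum, with 4 of 4 sites higher. The 3 sites after the start of Nr1i3 went from 29.5% of 637 reads (26.0 to 33.2) to 34.1% of 619, with 3 of 3 sites higher. The 8 sites near the start of Nr1i2 read 12.0% and 12.8%, with 4 higher and 4 lower. The 6 sites from +2803 to +2914 bp of Nr1i3 read 64.3% and 60.7%, with 2 higher and 4 lower. No site was called. Hepatocyte marker genes mostly read higher there: 74.7% of their 79 tested sites were higher in the BPA pool, beside 43.5% of all sites. Their summed level was 51.9% in the control and 54.9% in the BPA pool, beside 51.4% and 51.9% over all sites. The other marker lists also had higher sums in the liver BPA pool, except leukocytes (74.8% and 74.2%). Adipocyte genes had 53.7% and 55.1%, and astrocyte genes 45.5% and 46.8%. Among the hepatocyte genes Ttr read 40.1% and 45.7%, Apoa1 26.6% and 29.0% and Fgb 23.7% and 25.2%. The part of hepatocyte share in the levels of Nr1i2 and Nr1i3 was not tested.

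The pathways around the sensors were followed at 69 further genes in 5 lists. Calls in adipose numbered 23 of 6367 sites (0.361%), a share below the 0.535% of all sites, and 16 of these were higher in the BPA pool and 7 lower. Hypothalamus had 0 of 5438, beside 0.00599% of all sites, with 180 at an unadjusted Fisher p under 0.05 (3.31%, beside 3.41%). Liver had 2 of 5522 (0.0362%), beside 0.0259% of all sites. Scaling for the excess over counting error left 0 of the 23 in adipose and 1 of the 2 in liver.

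Around AHR, 2 of 1449 sites near its partners, chaperones and repressors were called in adipose (0.138%), and both were lower. This share was below the 0.535% of all sites. Rela, the NF-kB subunit that interacts with AHR, fell from 21.8% of 220 reads to 8.26% of 230, and Src, a kinase held in the cytosolic AHR complex, from 98.9% of 181 to 89.5% of 200 (adjusted Fisher p = 0.0231 and 0.0236). Of 341 sites near AHR target genes 1 was called (0.293%, also below 0.535%). It lay in Gsta1, a glutathione transferase, with 60.0% of 15 and 100% of 47 reads (adjusted Fisher p = 0.0272). That site has few reads and Gsta1 has close copies in the genome, so it is uncertain.

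Partners and coregulators of PXR and CAR had 6 of 2565 sites called in adipose (0.234%, below the 0.535% of all sites), 5 higher and 1 lower. Among them Hnf4a, a liver nuclear receptor, rose from 50.5% of 283 reads to 68.0% of 359, and Ncoa3, a coactivator, from 66.0% of 291 to 82.7% of 318. Rxra, the shared partner of both receptors, fell from 42.1% of 259 reads to 27.4% of 332 (adjusted Fisher p = 0.0449).

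Target genes of PXR and CAR had 10 of 1123 sites called in adipose (0.890%, above the 0.535% of all sites), 7 higher and 3 lower. Among the called genes are 2 export pumps, of which Abcc3 had 2 higher sites close together, from 42.2% to 64.9% and from 40.1% to 61.2%, and Abcc4 had 4 higher sites and 1 lower. Por, the reductase that supplies electrons to cytochrome P450 enzymes, had the smallest p of the list, rising from 71.0% of 221 reads to 90.4% of 230 at position 135717186 (adjusted Fisher p = 5.94e-04), and 1 lower site that read 6.77% and 0.413%. Cyp2c55, from a family of close copies, fell from 81.6% of 217 reads to 65.4% of 211. Other sensors of foreign or bile compounds had 4 of 892 sites called in adipose (0.448%, below the 0.535% of all sites), 3 higher and 1 lower. Among them Keap1, which holds the oxidant-responsive factor NRF2 in check, read 31.2% of 32 and 81.2% of 32 reads, and the vitamin D receptor gene Vdr had 2 higher sites and 1 lower.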

How the data were processed

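RRBS was run on 18 samples, and the reads were aligned with BSMAP to GRCm38 (mm10), per the submitters' processing notes; the BSMAP version and any removal of PCR copies are not given in the sources used here. The deposited read counts and methylation fractions per CpG join both strands and the 3 samples of a group, per the file headers. The deposited p-value is Fisher's exact test between the pools. It was recomputed with the same result within 3% at 99.76% to 99.9% of 5000 sites per table. The deposited credible difference, a score of the authors, served as an alternative only.

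Sites on nuclear chromosomes with at least 10 reads in each pool were tested, and p-values were Benjamini-Hochberg adjusted over all of them (numpy 2.4.6, pandas 2.3.3, scipy 1.17.1). A call needs an adjusted p under 0.05 and a difference of at least 5 points. Tests are two-sided and compare pooled reads, not animals. Control pools of 2 tissues were compared by the same exact test. A Wald test of log odds ratios on binomial read counts compared the pool difference of 2 tissues, with 0.5 added to each cell, adjusted over 39 tests. The steps were tested on simulated data. Gene positions are those of RefSeq (GRCm38.p6), and all 5 members and all 69 pathway and 46 marker genes matched. Neighbouring sites at most 200 bp apart formed a run. Positions count from 1.

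The members and lists were chosen with earlier results of these data known. The lists were AHR partners, chaperones and repressors, AHR target genes, PXR and CAR partners and coregulators, PXR and CAR target genes, other sensors of foreign or bile compounds, and markers of hepatocytes, adipocytes, neurons, oligodendrocytes, astrocytes, endothelium and leukocytes. Named sites are all called BPA sites of the members, otherwise the smallest p per tissue, the largest called tissue difference, sites near a start, and runs of at least 5 sites. Shorter runs and the other positions given were named after their values were seen. The single sites of 1 pathway gene are not reported here.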

Additional observations from a re-analysis of the deposited data

Results flagged for a closer look

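The difference between the BPA and control pools differed between tissues in 5 of the 39 tests, each an adjusted Wald p under 0.05. Nr1i2 position 38281093 gave 1.34e-04 for liver against adipose, where the pools differed by 7.17 and -14.5 points, and 0.0236 for hypothalamus against adipose, where hypothalamus differed by 1.90 points. Nr1i2 position 38273026 gave 0.0195 for liver against adipose (4.80 and -9.80 points). Arnt position 95493845 gave 0.04997 for the same pair (0.700 and -19.6 points), as did position 171220384 in the flank of Nr1i3, inside Tomm40l, with 0.04997 (16.4 and -5 points). The sites had been chosen by their p in 1 tissue, and the tests take counting error alone.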

How the results depend on the processing

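The 3 member calls in adipose were 3 at coverage minimums of 5 and 20 reads, with no minimum difference, at 10 points, in gene bodies alone, without the deepest 0.1% of sites and without sites in another gene. They became 0 with p-values scaled for the excess over counting error, and 9 by the authors' credible difference, which gave 1 in liver. The 23 pathway calls in adipose became 0 when scaled, and the 2 in liver became 1 when scaled and 1 without the deepest sites. Between control pools, the 11 calls of hypothalamus and adipose became 7 at 10 points and 0 when scaled, the 35 of liver and adipose became 6 when scaled, and the 28 of liver and hypothalamus became 6. The 5 tests between tissues became 3 with 1 added to each cell. The cause was not tested.

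With each site weighted equally, 19 of 30 summed levels left their counting interval and 5 of 15 pool differences changed sign; in gene bodies alone 15 levels did and 2 signs changed. At a minimum of 20 reads 5 levels left it and 1 sign changed, and with only the sites tested in every tissue it was 7 levels and 1 sign. At a minimum of 5 reads none of the 30 did. No paired analysis was possible because the tables pool the 3 samples of a group, and for the same reason no sample could be left out. Depth limits the Ahr stretch that holds the site called in adipose, where sites had 15 to 59 reads, and the Nr1i2 start in liver.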
